A study of Mus musculus with 16 samples.

Results

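Metallothionein and iron handling genes were followed in epithelial cells (EpCAM+) sorted from the distal colon of 16 mice. The set held 9 genes, taken by symbol from the 22396 symbols listed: *Mt1*, *Mt2*, *Slc39a4*, *Fth1*, *Ftl1*, *Tfrc*, *Slc11a2*, *Slc40a1* and *Heph*. All 9 were listed in both expression tables, and all 9 passed a filter on the mean of at least 1 TPM (a level normalised for transcript length and library size) in each comparison, none through 1 treatment alone. The mice received either water or 3% dextran sulfate sodium (DSS, which injures the colonic epithelium) in the drinking water over 6 days, and their colons were taken on day 12. Dose and day are those of the labels, whereas the study's methods give a higher concentration of DSS and its text treats the uninjured mice as day 0. All mice carried floxed alleles of *Tnfrsf1b*, the gene of TNF receptor 2 (Tnfr2). The controls (Tnfr2-f/f) had no Cre, whereas the labelled knockouts (Vil1::Cre;Tnfr2-f/f, named by their label because TPM could not check the deletion) carried a Cre driven by the villin promoter, which is active in intestinal epithelial cells and not in immune cells. There were 4 controls and 5 labelled knockouts on water, and 3 controls and 4 labelled knockouts on DSS. The DSS-treated mice were all female and came from 2 cages, and the water-treated mice came from 2 other cages, one of 4 males and one of 5 females. No cage held both treatments, so treatment and cage cannot be told apart. By the study's text, the cells of the DSS-treated mice came from injured regions, parted from unaffected colon under a stereomicroscope. The tissue taken thus also differed between treatments and cannot be told apart from them.

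Metallothioneins are small, cysteine-rich proteins that bind zinc and copper, and their genes are switched on by zinc through the factor MTF1 and also by inflammation and glucocorticoids. Ferritin, a shell of heavy (*Fth1*) and light (*Ftl1*) chains, stores iron inside the cell. The transferrin receptor (*Tfrc*) brings iron in from the blood, *Slc11a2* (DMT1) carries it across membranes, and ferroportin (*Slc40a1*) exports it with the help of the ferroxidase hephaestin (*Heph*). When iron is scarce, iron regulatory proteins bind a stem-loop, the iron-responsive element, which blocks translation when it lies at the start of an mRNA and protects the mRNA from decay when it lies at its end.

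The iron-responsive elements of 4 members are shown because they divide the ferritin and ferroportin mRNAs from that of the transferrin receptor. The pattern searched, of 17 bases on the transcript strand, was a C and 5 bases followed by the loop CAGTGN and 5 bases, with all 5 pairs of the stem required and G opposite T counted as a pair. Among 28988 listed transcripts, 0.0793% held a match in the 5′ UTR and 0.476% in the 3′ UTR. Sequences are from GENCODE M21 on GRCm38, 5′ to 3′, with the loop of 6 bases in capitals. The matches lay in exon 1 of *Fth1* (Fth1-201, chr19:9982732-9982760, plus strand), exon 1 of *Ftl1* (Ftl1-201, chr7:45459779-45459807, minus strand) and exon 1 of *Slc40a1* (Slc40a1-201, chr1:45925465-45925493, minus strand), each in the 5′ UTR, and 4 times in the 3′ UTR of *Tfrc*, in exon 19 of 19 (Tfrc-201, plus strand, starting at 32631219, 32631598, 32631663 and 32631710 of chromosome 16).
Fth1: ttcctgcttcaaCAGTGCttgaacggaac
Ftl1: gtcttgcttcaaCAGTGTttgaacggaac
Slc40a1: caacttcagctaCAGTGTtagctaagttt
Tfrc site 1: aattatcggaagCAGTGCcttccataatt
Tfrc site 2: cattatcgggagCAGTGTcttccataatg
Tfrc site 3: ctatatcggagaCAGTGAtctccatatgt
Tfrc site 4: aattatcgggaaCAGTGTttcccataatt
The listed transcripts of the other members held no match to this pattern. An element with an unpaired base in that stem would be missed, so the lack of a match does not show that an element is absent. A match is a description of the sequence, and binding was not measured.

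The promoters of *Mt1* and *Mt2* are shown because these neighbouring genes on chromosome 8 varied together (below). They are the RefSeq windows on GRCm38.p6 from 250 bases before to 50 bases after the annotated start, on the plus strand (Mt1 chr8:94178839-94179138, Mt2 chr8:94172368-94172667). Capitals mark the core of the metal response element bound by MTF1, searched as TGCACNC or TGCGCNC on both strands. *Mt1* held 3 matches and *Mt2* 4, none overlapping another. Of 32851 promoters of this length, 25.7% held at least 1 match, 1.97% at least 3 and 0.517% at least 4.
Mt1: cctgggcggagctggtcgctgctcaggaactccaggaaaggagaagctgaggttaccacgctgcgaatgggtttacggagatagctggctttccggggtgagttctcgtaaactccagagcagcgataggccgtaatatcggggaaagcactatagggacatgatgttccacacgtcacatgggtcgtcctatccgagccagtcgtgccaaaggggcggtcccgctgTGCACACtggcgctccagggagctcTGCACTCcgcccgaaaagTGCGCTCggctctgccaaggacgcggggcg
Mt2: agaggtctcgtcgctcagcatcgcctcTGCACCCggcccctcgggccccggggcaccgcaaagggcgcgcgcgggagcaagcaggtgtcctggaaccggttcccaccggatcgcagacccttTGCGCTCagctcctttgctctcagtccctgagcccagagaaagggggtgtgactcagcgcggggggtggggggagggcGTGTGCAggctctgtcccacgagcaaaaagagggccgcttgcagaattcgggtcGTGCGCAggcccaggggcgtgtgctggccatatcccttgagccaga

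The targeted gene was looked at first. *Tnfrsf1b* was listed at 13.5, 15.4, 11.1 and 15.5 TPM in the water-treated controls and at 11.4, 10.1, 9.23, 14.8 and 13.3 in the water-treated labelled knockouts. After DSS it was listed at 22.2, 13.9 and 13.3 TPM in the controls and at 27.0, 13.5, 15.2 and 17.7 in the labelled knockouts. The genotypes overlapped in both treatments (exact permutation test, two-sided, p = 0.198 in water and p = 0.629 after DSS). By the study's methods only exon 2 is flanked by loxP sites, and the TPM covers the whole transcript, so these levels do not check the deletion. The deposited TPM of a library added up to 539359 to 662142 after DSS and to 487469 to 861109 in water, and only principal transcripts were listed. The 2 treatments were scaled separately by the authors. Levels set across them were therefore rescaled by 1 factor per mouse (median of ratios over all genes) and are called rescaled TPM, and no test was run between them.

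The sort marker *Epcam* was high in every mouse (642 to 801 rescaled TPM in water, 782 to 859 after DSS), and all 12 epithelial markers were detected in all groups. Macrophage RNA differed far more. All 13 macrophage markers averaged at least 1 rescaled TPM in the water-treated mice, where their sum ran from 1408 to 3245, whereas 8 of 13 did so after DSS, where the sum ran from 70.4 to 144. The defining marker *Csf1r* was at 70.2 to 169 rescaled TPM in water and at 0.474 to 2.64 after DSS, *Adgre1* was at 26.9 to 73.5 and 0.197 to 0.797, and *Vsig4* was listed at 0 in every DSS-treated control. Markers of plasma and B cells summed to 546 to 16160 rescaled TPM in water and to 7.64 to 404 after DSS. Of the epithelial cell classes, the surface colonocyte markers summed to 1782 to 2748 in water and 633 to 1401 after DSS. The goblet cell markers summed to 4105 to 7010 in water and to 993 to 1925 in 6 of 7 mice after DSS, with the third DSS-treated control apart at 6170. These differences run the same way as several of the results that follow. Their part in those results was not tested, and a change in the number of cells of a type cannot be told apart from a change in RNA per cell.

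The members spanned a wide range of levels, and their order was much the same in each mouse. The ferritin chains were the highest, at ranks 21 to 76 of all genes in a mouse (1 is the highest), followed by *Mt1*, *Mt2*, *Tfrc*, *Slc40a1*, *Heph*, *Slc39a4* and *Slc11a2*. *Fth1* was above *Ftl1* in 3 of 9 water-treated and 4 of 7 DSS-treated mice, so these neighbours were not ordered. *Ftl1* was above *Mt1*, and *Mt1* above *Mt2*, in all 16 mice. *Mt2* was above *Tfrc* in all 9 water-treated mice but in 6 of 7 after DSS, *Slc40a1* was above *Heph* in 9 of 9 and 6 of 7, and *Slc39a4* was above *Slc11a2* in 8 of 9 and 7 of 7.

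**Figure D1:**
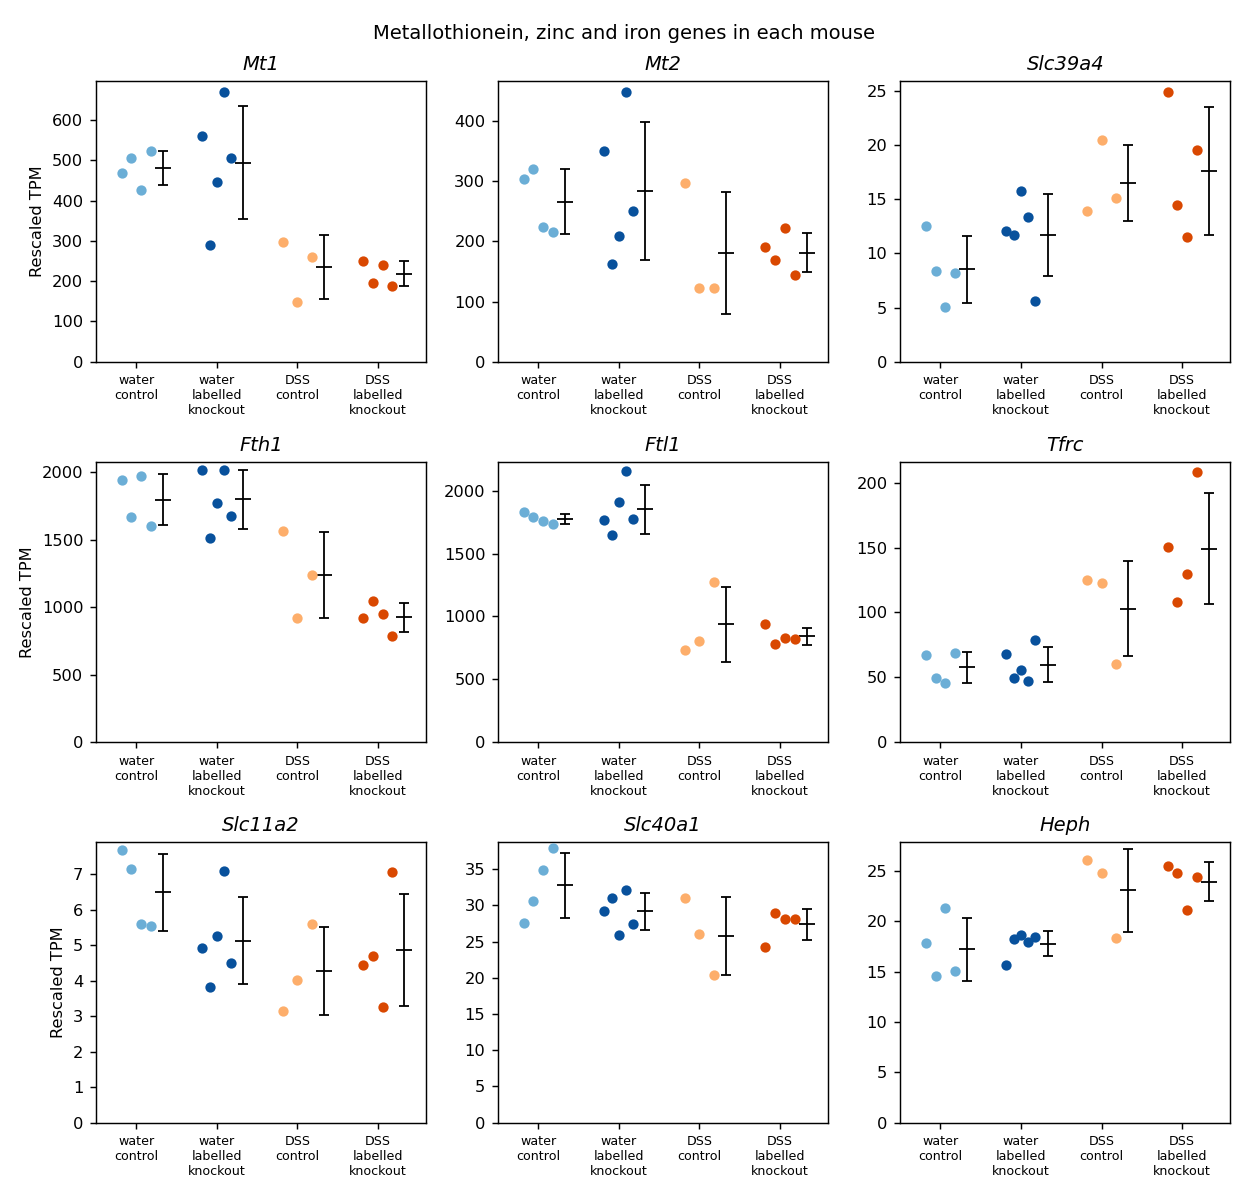
Rescaled TPM of the 9 genes (vertical axis, from 0) in each mouse (points) of the 4 groups, with the mean and SD of each group in black. The ferritin chains and *Mt1* are lower in every DSS-treated mouse than in the water-treated mice of the same genotype, and *Tfrc* is above 100 rescaled TPM in 6 of 7 DSS-treated mice.

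After DSS, *Mt1* and both ferritin chains were lower than in water in both genotypes, with no overlap between the groups, and no member was higher without overlap in both. Over all genes, 14.2% were lower and 10.5% higher without overlap in the control mice (3 against 4), and 18.1% were lower and 17.3% higher in the labelled knockouts (4 against 5). In both genotypes together 8.63% were lower and 6.36% higher. In the controls 3 of 9 members were lower (*Mt1*, *Fth1* and *Ftl1*) and 1 was higher (*Slc39a4*), and in the labelled knockouts the same 3 were lower and 2 were higher (*Tfrc* and *Heph*). The median difference of the members, on the log2(TPM + 1) scale of rescaled values, was -0.52 in the controls and -0.09 in the labelled knockouts, beside 0.01 and -0.01 over all genes. With 9 members these counts are a description, and nothing is called particular to the members from them.

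Among the metallothioneins, *Mt1* (ENSMUSG00000031765, chr8:94179082-94180327, plus strand) was at 469.9, 507, 427 and 523 rescaled TPM in the water-treated controls and at 298, 147 and 261 in the DSS-treated controls. It was at 559.7, 290.1, 446, 671 and 506 in the water-treated labelled knockouts and at 250.4, 196, 240.0 and 187 after DSS. Every DSS-treated mouse was below every water-treated mouse of its genotype, although the second water-treated labelled knockout came close to the highest DSS values. The difference of the means was -1.09 ± 0.32 (SE) on the log2(TPM + 1) scale in the controls and -1.13 ± 0.23 in the labelled knockouts.

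*Mt2* (ENSMUSG00000031762, chr8:94172664-94173568, plus strand) overlapped between treatments. It was at 304, 319.6, 225 and 215 rescaled TPM in the water-treated controls and at 298, 123 and 123 in the DSS-treated controls, and at 349.7, 163, 209, 448 and 249.7 against 190.1, 169, 222 and 144 in the labelled knockouts. The first DSS-treated control was as high as the water-treated mice, and the differences were -0.66 ± 0.45 (SE, controls) and -0.57 ± 0.29 (labelled knockout) on the log2(TPM + 1) scale. Without that mouse the difference in the controls was -1.09. The ratio of *Mt1* to *Mt2* within a mouse, which needs no rescaling, was 1.498 to 2.43 in water. After DSS it was 1.00, 1.20 and 2.13 in the controls and 1.08 to 1.32 in the labelled knockouts. In 6 of 7 DSS-treated mice it lay below every water-treated mouse, and the third DSS-treated control was the exception. The brain and epidermal forms *Mt3* and *Mt4* were counted with the zinc genes below.

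The zinc importer *Slc39a4* (ZIP4, ENSMUSG00000063354, chr15:76612383-76617384, minus strand) takes up dietary zinc at the apical membrane of enterocytes. It was at 12.5, 8.34, 5.01 and 8.22 rescaled TPM in the water-treated controls and at 13.9, 20.5 and 15.1 after DSS. In the labelled knockouts it was at 12.1, 11.7, 15.7, 13.4 and 5.58 in water and at 24.9, 14.4, 11.6 and 19.5 after DSS. The controls did not overlap (0.92 ± 0.29, SE, log2(TPM + 1)), whereas the labelled knockouts did (0.56 ± 0.33, and 0.34 without the fifth water-treated mouse, the lowest of its group).

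The heavy chain of ferritin, *Fth1* (ENSMUSG00000024661, chr19:9980598-9985098, plus strand), carries the ferroxidase site. Its rescaled TPM were 1945, 1668, 1969 and 1599 in the water-treated controls against 1562, 920.1 and 1237 after DSS, and 2018, 1514, 1771, 2016 and 1679 against 922, 1048, 951 and 784 in the labelled knockouts. The controls came close to each other (1562 against 1599), whereas the labelled knockouts were well apart. The differences were -0.56 ± 0.23 and -0.96 ± 0.12 (SE, log2(TPM + 1)), and that in the controls was -0.36 without the second DSS-treated mouse.

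The light chain, *Ftl1* (ENSMUSG00000050708, chr7:45457944-45459884, minus strand), helps to form the iron core. It was at 1828, 1788, 1759 and 1735 rescaled TPM in the water-treated controls and at 730.3, 803 and 1275 after DSS. In the labelled knockouts it was at 1768, 1650.3, 1909.9, 2156 and 1773 in water and at 939.9, 780.2, 828 and 819 after DSS. No DSS-treated mouse reached any water-treated mouse, and the differences were -0.97 ± 0.25 and -1.13 ± 0.09 (SE, log2(TPM + 1)). Ferritin has many processed copies in the genome. The copy *Ftl1-ps1* was listed at 4.09 to 13.4 rescaled TPM, and since reads shared by near-identical copies are divided by estimation, the ferritin levels are uncertain to that extent. Reads shared with unlisted transcripts of the same gene are divided likewise. Of the stretches of 31 bases of the listed *Fth1* transcript, 0.556% were absent from the gene's other annotated transcripts. This share was 4.90% for *Ftl1* and 3.33% for *Tfrc*, so the levels of all 3 also depend on that division.

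The transferrin receptor gene *Tfrc* (ENSMUSG00000022797, chr16:32608920-32632794, plus strand) went the other way from ferritin. It was at 67.2, 49.5, 45.8 and 69.1 rescaled TPM in the water-treated controls and at 125, 123 and 60.6 in the DSS-treated controls, and at 67.9, 49.2, 56.0, 47.2 and 78.9 against 151, 108, 129.8 and 208 in the labelled knockouts. Of the DSS-treated mice, 6 of 7 were above every water-treated mouse, and the third DSS-treated control lay among them. The differences were 0.77 ± 0.37 (controls) and 1.29 ± 0.24 (labelled knockout, SE, log2(TPM + 1)), and without the third DSS-treated control the former was 1.11. That library also had the lowest sum of the proliferation markers among the DSS-treated mice (198 rescaled TPM, against 227 to 292 in the others). Its goblet cell markers stood further apart (6170, against 993 to 1925 in the others). The part of either in its *Tfrc* level was not tested.

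**Figure D2:**
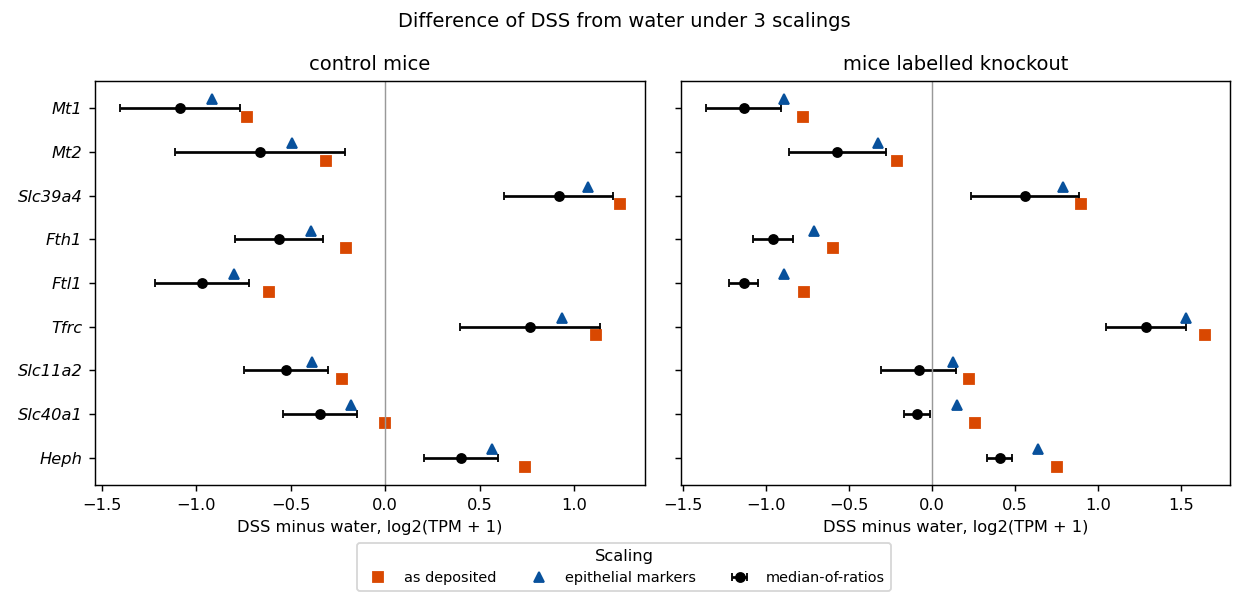
Difference of DSS from water for each gene (horizontal axis, log2(TPM + 1)) for controls (left) and labelled knockouts (right), after rescaling by median-of-ratios (black, bars are 1 SE), with the TPM as deposited (orange squares) and scaled to the epithelial markers (blue triangles). *Mt1*, *Mt2* and the ferritin chains stay below 0 and *Slc39a4*, *Tfrc* and *Heph* above 0 under the 3 scalings, whereas *Slc11a2* and *Slc40a1* cross 0 in the labelled knockouts.

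The ratio of ferritin to transferrin receptor RNA within a mouse is free of any scaling between the treatments. *Ftl1* was 22.5 to 45.7 times *Tfrc* in the 9 water-treated mice. After DSS the ratio was 5.83, 6.55 and 21.1 in the controls and 6.24, 7.22, 6.38 and 3.93 in the labelled knockouts. *Fth1* was 21.3 to 43.0 times *Tfrc* in water and 12.5, 7.50 and 20.4 times in the DSS-treated controls, with 6.12, 9.69, 7.33 and 3.77 in the labelled knockouts. Neither ratio overlapped between the treatments, and the third DSS-treated control was nearest to the water-treated mice in both. These ratios combine levels already given above, lower for ferritin and higher on average for *Tfrc*, so they are not a separate result. No share of gene pairs that part in this way was computed.

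**Figure D3:**
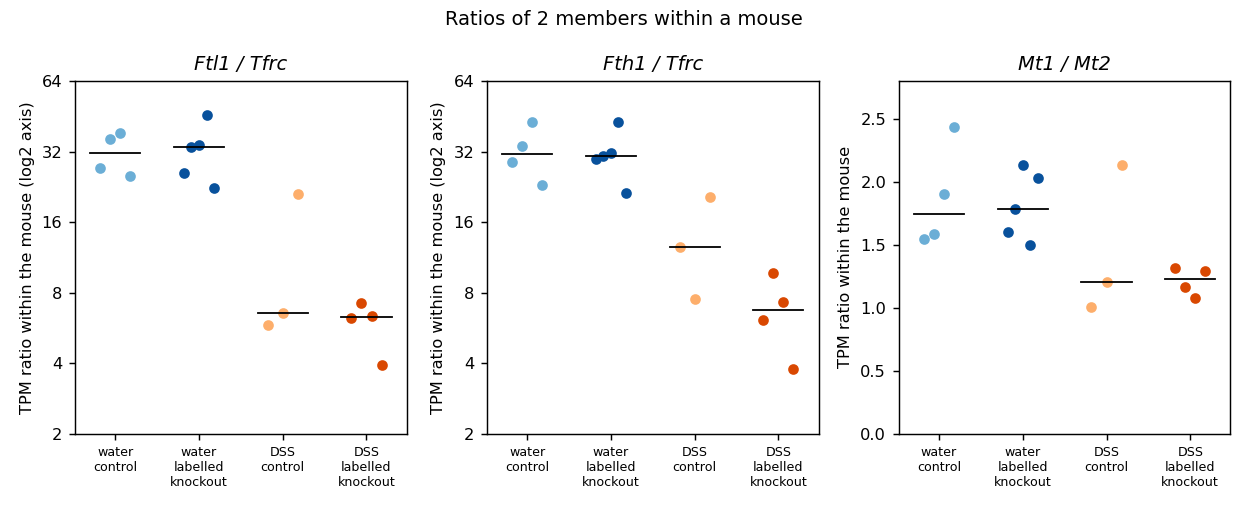
Ratio of TPM of 2 genes within each mouse (points) of the 4 groups, with the group median as a line, for *Ftl1* over *Tfrc* and *Fth1* over *Tfrc* (log2 axes) and *Mt1* over *Mt2* (linear axis from 0). All 7 DSS-treated mice lie below the 9 water-treated mice in both ferritin ratios, with the highest at 21.1 and 20.4.

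The members that move iron across membranes differed less. *Slc11a2* (DMT1, ENSMUSG00000023030, chr15:100387898-100425072, minus strand) was the lowest member, at 5.54 to 7.68 rescaled TPM in the water-treated controls, 3.16 to 5.61 after DSS, and 3.83 to 7.10 against 3.27 to 7.06 in the labelled knockouts. *Slc40a1* (ferroportin, ENSMUSG00000025993, chr1:45908068-45926523, minus strand) was at 27.6 to 37.9 and 20.3 to 30.97 rescaled TPM in the controls and at 26.0 to 32.1 and 24.2 to 28.9 in the labelled knockouts. The groups of both genes overlapped in both genotypes. Their differences were -0.52 ± 0.22 and -0.34 ± 0.20 (SE, log2(TPM + 1)) in the controls, and -0.08 ± 0.23 and -0.09 ± 0.08 in the labelled knockouts. The sign of the latter depends on the scaling, being 0.22 for *Slc11a2* and 0.26 for *Slc40a1* with the TPM as deposited. In the controls that of *Slc40a1* was -0.19 without the third DSS-treated mouse.

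*Heph* (hephaestin, ENSMUSG00000031209, chrX:96455359-96574485, plus strand) was at 17.8, 14.6, 21.4 and 15.05 rescaled TPM in the water-treated controls and at 26.0, 24.8 and 18.3 after DSS. In the labelled knockouts it was at 15.6, 18.2, 18.6, 17.9 and 18.4 in water and at 25.4, 24.7, 21.1 and 24.3 after DSS. The controls overlapped through the third DSS-treated control and the third water-treated control, and the labelled knockouts did not overlap. The difference was 0.40 ± 0.19 and 0.41 ± 0.07 (SE, log2(TPM + 1)). The sum was steadier than its parts, since *Heph* had 2 listed transcripts that traded values between mice. Heph-201 ran from 3.85 to 18.5 rescaled TPM and Heph-203 from 2.06e-08 to 16.4, and none of the stretches of 31 bases of Heph-203 was absent from the other transcripts of the gene, so the split between them was not resolved.

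The scaling decides which members were apart. Relative to the rescaled values, the TPM as deposited moved the median of all genes by about the same amount in both genotypes, to 0.32 in the controls and 0.30 in the labelled knockouts (DSS minus water, log2). On that scale *Ftl1* was the 1 member that stayed lower without overlap in both genotypes, and *Tfrc* and *Heph* were higher without overlap in both, beside 5.03% of all genes lower and 22.7% higher. Scaled to the epithelial markers, or to equal totals without immunoglobulin and mitochondrial genes, *Ftl1* alone was apart in both genotypes, being lower (6.86% of all genes were lower and 4.4% higher on the epithelial markers, and 5.79% and 13.8% on those totals). By rank within each mouse *Tfrc* alone was apart in both (13.1% of all genes were higher and 6.8% lower), at ranks 223 to 906 after DSS and 843 to 1397 in water, with the controls at 401, 426 and 906 against 955 and beyond. Taken relative to the median of all genes, every member kept the sign of its difference in both genotypes under the deposited scale and both other scalings. Subtracting that median takes out most of what a change of scaling does, so this could hardly come out otherwise and is no check. Without the subtraction, *Slc40a1* and *Slc11a2* changed sign in the labelled knockouts. Without the third DSS-treated control, *Tfrc* and *Heph* were also apart on the rescaled values, which made 5 of 9 members (14.3% of all genes were then lower and 14.7% higher in both genotypes). Against the female water-treated mice alone (2 controls and 3 labelled knockouts), which match the sex of the DSS-treated mice, *Mt1*, *Fth1* and *Ftl1* were lower and *Heph* higher without overlap in both genotypes, beside 12.5% of all genes lower and 10.1% higher.

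The macrophage markers were lower after DSS, as were *Mt1* and the ferritin chains, whereas *Tfrc*, *Slc39a4* and *Heph* had higher means. Within the water-treated mice, where the sum of these markers varied from 1408 to 3245, 9 relations with it were computed, and with 2 relations of *Tfrc* to proliferation they made a family of 11. *Ftl1* had the strongest relation to the macrophage markers (n = 9, Pearson's r = 0.80, exact permutation p = 0.0188, adjusted p = 0.0992, Spearman's rho = 0.82, exact permutation p = 0.0108, adjusted p = 0.118). It fell to r = 0.42 without the 2 mice farthest from the median of the markers, which were the labelled knockouts 2 and 4, and so depends on them. Leaving them out also takes away much of the range of the markers. Of the mice left, labelled knockout 1 was at 1824 and the others at 2355 to 2549. Each r given without the 2 mice thus hangs largely on that mouse. *Mt1* had r = 0.75 (n = 9, exact permutation p = 0.0361, adjusted p = 0.0992) but rho = 0.18 (exact permutation p = 0.644, adjusted p = 0.787), and r turned to -0.68 without the same 2 mice. *Fth1* had r = 0.47 and *Tfrc* r = -0.01 (n = 9, exact permutation p = 0.213 and 0.971, adjusted p = 0.390 and 0.992), with rho = 0.40 and -0.08 (exact permutation p = 0.291 and 0.843, adjusted p = 0.616 and 0.843), and r was -0.43 and -0.16 without the same 2 mice. *Slc11a2* had r = 0.72 (n = 9, exact permutation p = 0.0263, adjusted p = 0.0992) with rho = 0.43 (exact permutation p = 0.250, adjusted p = 0.616), and r = 0.33 without the 2 mice. None of the 11 relations passed the adjustment, and cages of 4 and 5 mice are too small to recompute them within a cage.

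**Figure D4:**
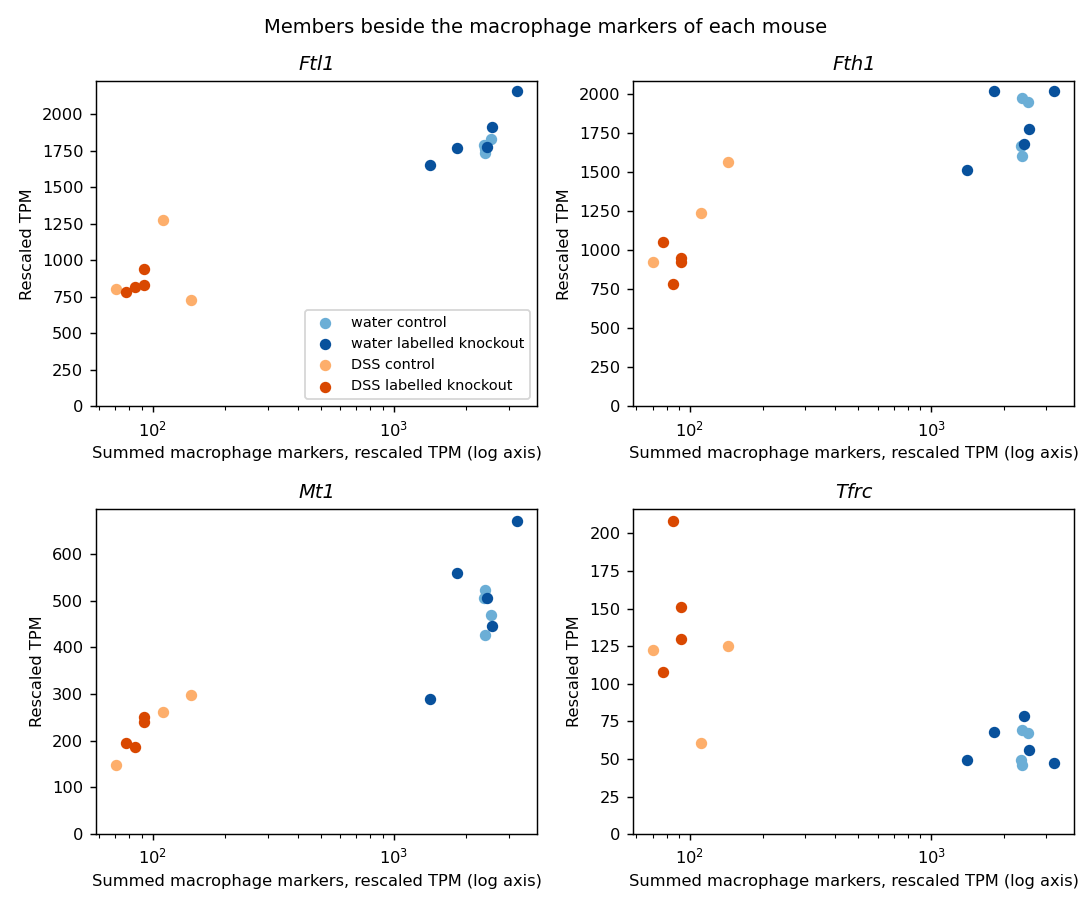
Rescaled TPM of *Ftl1*, *Fth1*, *Mt1* and *Tfrc* (vertical axes, from 0) against the summed rescaled TPM of the 13 macrophage markers (horizontal axes, log scale) in each mouse (points, coloured by group). The water-treated mice lie at 1408 to 3245 of the markers and the DSS-treated mice at 70.4 to 144, with no mouse in between.

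*Tfrc* was set beside the proliferation markers because dividing cells take up iron through the transferrin receptor. The proliferation markers summed to 119 to 219.8 rescaled TPM in water and to 198 to 292 after DSS. In the DSS-treated mice *Tfrc* followed them with r = 0.79 (n = 7, exact permutation p = 0.0351, adjusted p = 0.0992) and rho = 0.61 (exact permutation p = 0.167, adjusted p = 0.616), and with r = 0.89 over 5 mice without the controls 2 and 3. In the water-treated mice r was 0.10 (n = 9, exact permutation p = 0.811, adjusted p = 0.992) and rho 0.08 (exact permutation p = 0.843, adjusted p = 0.843), with r = -0.44 without control 3 and labelled knockout 3.

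The question of the study was what removing Tnfr2 from the epithelium does, and no member passed the test of genotype in either treatment. In limma's test of genotype across all genes, with Benjamini-Hochberg adjustment, 1 of 11046 genes was called in water (0.00905%, *Dus2*) and 1 of 10899 after DSS (0.00918%, *Tra2a*). Both names were read from the results. At an unadjusted p under 0.05 there were 583 genes in water and 289 after DSS, and 0 of 9 members in each. On the log2(TPM + 1) scale the median difference of the members, labelled knockout minus control, was 0.03 in water and 0.07 after DSS, beside 0.00149 and 0.02 over all genes.

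The member with the lowest p after DSS was *Tfrc*. It was at 116 ± 37.5 TPM as deposited (SD, n = 3) in the controls and at 172 ± 48.4 (SD, n = 4) in the labelled knockouts, a difference of 0.58 ± 0.29 (SE, log2(TPM + 1); limma p = 0.0833, adjusted p = 1.00; exact permutation p = 0.200). Within cages the difference was 1.24 in the cage with 1 mouse of each genotype and 0.25 in that with 2 controls and 3 labelled knockouts, and it was 0.28 without the third control. *Fth1* was 0.38 lower on that scale after DSS (-0.38 ± 0.21, limma adjusted p = 1.00, exact permutation p = 0.171), with -0.48 and -0.33 within the cages, -0.21 without control 1 and -0.61 without control 2. In water the lowest p belonged to *Slc11a2*, at 5.82 ± 1.02 TPM (SD, n = 4) against 4.602 ± 1.07 (SD, n = 5), a difference of -0.29 ± 0.17 (limma adjusted p = 0.865, exact permutation p = 0.119), with -0.49 in the males' cage and -0.15 in the females'. *Slc39a4* was at 7.65 ± 2.84 TPM (SD, n = 4) and 10.5 ± 3.45 (SD, n = 5) in water, a difference of 0.41 ± 0.31 (limma adjusted p = 0.865, exact permutation p = 0.222), with 0.51 and 0.33 within the cages, 0.21 without control 3 and 0.63 without labelled knockout 5. The genotypes of all 9 members overlapped in both treatments. The smallest p that the exact test allows is 0.0286 after DSS and 0.00794 in water.

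The difference between the genotype effects of the 2 treatments was tested by an interaction term in limma, added after the values had been seen. It called 1 of 11247 genes and no member, with adjusted p of at least 0.949 for the members. The largest difference of effects was that of *Tfrc* (0.53 ± 0.36, SE, log2; adjusted p = 0.949), followed by *Slc11a2* (0.45 ± 0.32, adjusted p = 0.949).

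Within groups, the members with the most similar patterns were the metallothioneins and the ferritin heavy chain. Over 16 mice, after the mean of each of the 4 groups was removed from log2(TPM + 1) of the rescaled values, Pearson's r was 0.78 between *Mt1* and *Mt2*, 0.72 between *Mt2* and *Fth1* and 0.69 between *Mt1* and *Fth1*. *Ftl1* and *Slc11a2* had r = 0.59, whereas *Ftl1* ran against *Slc40a1* (r = -0.66) and *Tfrc* (r = -0.56). Among 7263 genes with a mean of at least 5 rescaled TPM, the 3 most like *Mt2* were *Ptafr* (0.89), *Nlrp3* (0.89) and *Pde4b* (0.86), of which *Nlrp3* encodes an inflammasome sensor and *Ptafr* the receptor of platelet-activating factor. Those most like *Mt1* were *Tubgcp3* (0.86), *Socs3* (0.84), an inhibitor of cytokine signalling, and *Spi1* (0.84), the myeloid factor PU.1. Those most like *Fth1* were the complement gene *C3* (0.84), the interleukin 1 antagonist *Il1rn* (0.82) and *Tubgcp3* (0.82). *Ftl1* was most like *Eif6*, *Klf16* and *Sertad1* (0.92 each). *Tfrc* was most like *Mgam* (0.82), *Smad4* (0.81) and *Rbm45* (0.79), *Slc39a4* like *Mrpl49* (0.90), *Hars* (0.84) and *Cdt1* (0.82), and *Slc40a1* like *Rfx7* (0.87), *Slf2* (0.86) and *Cops4* (0.85). *Slc11a2* was most like *Smarcal1* (0.81), *Ifitm2* (0.77) and *Slc20a2* (0.77), and *Heph* like *Mfap3* (0.86), *Ube3c* (0.85) and *Tmem168* (0.85). The highest of 7263 correlations over 16 mice are high by selection, and the mice of a cage share their surroundings, so these values describe the mice only.

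The other genes of metal handling were taken from lists of zinc, iron, haem and copper genes. Of 79 genes 78 were listed, and 61 passed the filter in the controls and 60 in the labelled knockouts. In the controls 9 of 61 were higher and 15 lower after DSS without overlap, and in the labelled knockouts 13 of 60 were higher and 14 lower. Of these, *Lcn2* (higher) and *Slc30a10* (lower) in both genotypes and *Bmp6* (lower) in the controls passed the filter only through the treatment in which they were high, and so had to differ. Over all genes, 10.5% were higher and 14.2% lower on the rescaled values in the controls, and 17.3% and 18.1% in the labelled knockouts. The rescaled counts of each list below are to be read beside these shares. In both genotypes 8 of 60 metal genes were higher and 9 lower, beside 6.36% and 8.63% of all genes. The median difference was -0.09 and -0.15 (log2(TPM + 1)). With the TPM as deposited, 30.7% of all genes were higher and 8.4% lower in the controls and 31.3% and 10.3% in the labelled knockouts, and the counts on that scale below are to be read beside these shares. Of the haem genes, 0 of 15 were higher and 7 of 15 lower in the controls and 0 and 5 of 15 in the labelled knockouts, but with the TPM as deposited 2 were higher and 2 lower in the controls and 3 higher and 5 lower in the labelled knockouts. Of the zinc genes, 4 of 19 were higher and 3 lower in the controls and 5 of 18 higher and 2 lower in the labelled knockouts, and with the TPM as deposited 9 were higher and 1 lower in each genotype. Of the iron genes, 5 of 20 were higher and 4 lower in the controls, and 8 of 20 higher and 4 lower in the labelled knockouts. With the TPM as deposited 6 were higher and 3 lower in the controls and 8 higher and 2 lower in the labelled knockouts. Of the copper genes, none of 7 was higher in either genotype, while 1 was lower in the controls and 3 in the labelled knockouts, but with the TPM as deposited 2 were higher and 2 lower in the labelled knockouts.

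Of these genes, 13 had a mean of at least 5 rescaled TPM and were apart in one direction in both genotypes. No share of all genes is given at that level, so the count is a description. All 13 kept their direction under 4 other scalings (as deposited, by rank, to those equal totals and to the epithelial markers). *Lcn2* and *Steap1* reached that mean only through the DSS-treated mice and *Blvrb* only through the water-treated mice, so these 3 had to differ. Of the other 10, *Hmox1*, *Slc39a8* and *Aco1* also stayed apart in both genotypes under each scaling. *Hmox1*, haem oxygenase 1, breaks haem down and releases its iron. It was at 72.3, 99.6, 81.6 and 56.4 rescaled TPM in the water-treated controls and at 10.9, 4.30 and 4.26 after DSS (-3.47 ± 0.43, SE, log2(TPM + 1)), and at 36.7 to 117 against 5.68 to 8.69 in the labelled knockouts (-2.77 ± 0.31). *Blvrb*, which reduces biliverdin, was at 12.4 to 17.8 against 1.79 to 7.91 in the controls and at 13.5 to 35.9 against 2.81 to 6.61 in the labelled knockouts. The haem transporter *Slc48a1* was at 13.9 to 22.5 in water and 5.43 to 10.98 after DSS over both genotypes, and *Urod*, an enzyme of haem synthesis, was at 19.7 to 29.7 and 8.99 to 18.7. Macrophages that recycle red cells express several of these genes, and the macrophage markers stood at 1408 to 3245 against 70.4 to 144, whose part in these values was not tested.

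Of the iron genes, *Trf* (transferrin) was at 31.7 to 82.6 rescaled TPM in water and 7.09 to 29.4 after DSS, and the lysosomal iron channel *Mcoln1* was at 10.7 to 14.5 and 5.48 to 10.2. *Lcn2*, the iron-sequestering defence protein lipocalin 2, was listed at 0 in all 5 water-treated labelled knockouts and at up to 1.08 in the water-treated controls. After DSS it was at 38.3, 2.70 and 2.31 in the controls and at 7.01 to 17.2 in the labelled knockouts. The neutrophil markers summed to 51.8 to 73.2 rescaled TPM in the water-treated controls and to 78.5 to 1776 in the DSS-treated controls. In the labelled knockouts they summed to 48.9 to 118 in water and to 263 to 505 after DSS. The treatments thus overlapped only between genotypes. Of these 7 markers, 5 averaged at least 1 rescaled TPM in water and 6 did so after DSS. *Mpo* was listed at 0 in every DSS-treated mouse and also in every water-treated labelled knockout. No relation of *Lcn2* to the neutrophil markers was computed, and their part was not tested. Over both genotypes *Steap1*, of a family of metalloreductases, was at 0.983 to 6.70 in water and 6.21 to 9.83 after DSS. These ranges overlap only between genotypes. Both iron regulatory protein genes were higher after DSS, under the 4 other scalings too, although *Ireb2* overlapped in the controls when scaled to the epithelial markers. *Ireb2* (IRP2) was at 9.44 to 13.3 rescaled TPM in water and 14.0 to 29.6 after DSS, a difference of 0.86 ± 0.32 in the controls and 1.06 ± 0.07 in the labelled knockouts. *Aco1* (IRP1, also a cytosolic aconitase) was at 22.2 to 29.3 and 29.4 to 32.5, with 0.36 ± 0.07 and 0.18 ± 0.06 (SE, log2(TPM + 1)).

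Of the zinc genes, the importer *Slc39a8* (ZIP8) was at 5.76 to 10.6 rescaled TPM in water and 12.9 to 24.8 after DSS, with differences of 1.10 ± 0.29 and 1.04 ± 0.09 (SE, log2(TPM + 1)). The vesicular exporter *Slc30a4* (ZnT4) was at 4.72 to 6.89 and 6.57 to 12.6, and *Slc30a7* (ZnT7), which loads zinc into the Golgi, at 6.38 to 8.49 and 8.14 to 10.6.

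**Figure D5:**
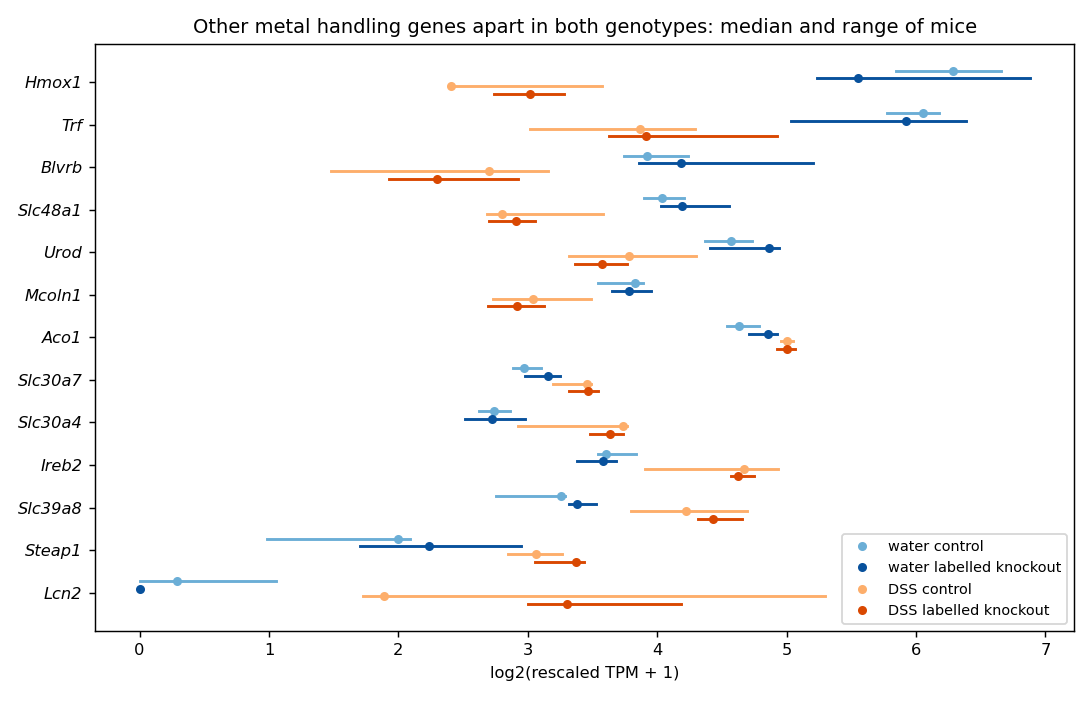
Median (points) and range over mice (lines) of log2(rescaled TPM + 1) in the 4 groups for the 13 other metal handling genes that were apart in both genotypes, ordered from lowest to highest difference of DSS from water. *Hmox1*, *Trf* and *Blvrb* are furthest below and *Lcn2* furthest above, at 0 in all water-treated labelled knockouts.

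By genotype, none of the 59 listed metal genes tested in each treatment was called by limma. An unadjusted p under 0.05 was found for 1 in water and 2 after DSS, which are named here after their values were seen. *Slc39a11* was at 19.7, 11.1, 23.2 and 13.6 TPM in the water-treated controls and at 25.9, 31.9, 32.1, 28.7 and 28.6 in the labelled knockouts, with no overlap (0.82 ± 0.20, SE, log2(TPM + 1); limma adjusted p = 0.865). *Hamp*, the iron hormone hepcidin, was at 4.70, 2.02 and 0.557 TPM in the DSS-treated controls and listed at 0 in all 4 labelled knockouts (limma adjusted p = 1.00). It reached the filter only through those controls (1.04 TPM over the 7 mice), so that its unadjusted p carries no weight, and it was also listed at 0 in 8 of 9 water-treated mice. The copper chaperone *Ccs* was at 23.1, 20.6 and 37.9 TPM in the DSS-treated controls and at 17.8, 19.6, 18.1 and 17.8 in the labelled knockouts (limma adjusted p = 1.00).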

How the data were processed

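RNA of epithelial cells (EpCAM+) from the distal colon of 16 mice had been made into stranded, polyA-enriched libraries with single reads of 75 bases. The authors quantified transcripts with kallisto and sleuth (mm10 in the submitters' notes, versions not given in the sources used here) and deposited 2 tables of TPM per transcript, one for each treatment and scaled separately, in which only principal isoforms are listed. The authors' columns of their own comparisons (fold, p-value and q-value) were not used, and no column of another sample was present. TPM keep no depth, so the number of mice sets the precision and no counting interval is given.

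Of 29373 lines in each table, 385 repeated another and were dropped, and TPM was summed over the transcripts of a gene symbol. The members and gene lists were chosen with earlier results of these data known. Within each treatment, limma 3.58.1 (R 4.3.3) tested genotype on log2(TPM + 1) for every gene whose mean reached 1 TPM, and a gene was called where the p adjusted by Benjamini-Hochberg fell under 0.05. This scale understates the changes of low genes. The script was tested on simulated data. Single members were compared by exact two-sided permutation (scipy 1.17.1). DSS and water were set side by side after rescaling all 16 mice by median-of-ratios factors (1.10 to 1.21 after DSS, 0.882 to 0.916 in water), with no test. Means are given with SD, and differences with the SE of the spread between mice.

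Besides the 9 members and *Tnfrsf1b*, the genes named were those of the zinc, iron, haem and copper lists called by genotype, up to 15 of these lists with the largest mean difference of DSS from water among genes of at least 5 TPM apart in both genotypes, defining markers of other cell types, and for each member the 3 genes most like it. *Dus2*, *Tra2a*, *Slc39a11*, *Hamp*, *Ccs*, *Slc30a10*, *Bmp6* and *Ftl1-ps1* fall outside this rule and were named after their values were seen. *Fech* and *Myh11*, of the haem and stromal lists, were not used here. Beside the lists in the results, the T cell markers summed to 2.26 to 8.15 rescaled TPM in water and 0.159 to 3.01 after DSS, the stromal markers to 236 to 836 and 93.5 to 439, the endothelial markers to 12.4 to 40.5 and 11.9 to 31.1, and the erythroid markers to 59.0 to 993 and 24.2 to 259. The summed epithelial markers were 7505 to 10369 and 5835 to 9139. Promoter windows were found in RefSeq for 5 of 9 members, and the versions of the listed transcripts matched GENCODE M21 for all members but *Fth1*, which was matched without its version. Tables and plots were made in Python 3.11.15 with pandas 2.3.3, numpy 2.4.6 and matplotlib 3.10.9. Alternatives are given in the closing section.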

Additional observations from a re-analysis of the deposited data

Results flagged for a closer look

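In a search of 27 sets of 4 or 5 mice (each member in the 3 groups of that size) for 1 mouse far from the rest, 1 was found, which is about what chance gives, since about 1 in 20 groups is picked out. *Heph* was at 15.6 rescaled TPM in the first water-treated mouse labelled knockout, while the other 4 mice of that group lay between 17.9 and 18.6. The gap to the nearest of them was 0.775 of the whole range, beside a critical value of 0.710. The value lies within the range of the water-treated controls (14.6 to 21.4 rescaled TPM).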

How the results depend on the processing

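No member was called by genotype under any alternative. The number of genes called by genotype was 1 in each treatment. After DSS it was 0 with a pseudocount of 0.1 (277 genes at an unadjusted p under 0.05), 0 without a filter (545), 2 over listed transcripts, and 0 to 3 when 1 mouse was left out (0 without control 2 or labelled knockouts 1, 2 or 3, 3 without control 1 and 2 without control 3). In water it was 0 with a pseudocount of 0.1 (558) or with genes of at least 5 TPM (373), 4 without a filter, 3 with all 4 groups in one fit, 2 over listed transcripts, and 1 to 2 when 1 mouse was left out (2 without control 1, control 3 or labelled knockout 1). With the replicate number as a block it was 0 in each treatment (169 genes after DSS and 623 in water at an unadjusted p under 0.05). Equal numbers do not mark the same animal, and the correlations of their deviations ran from -0.20 to -0.03 after DSS and from -0.08 to 0.09 in water. Of 7 controls, 2 of 4 in water and 0 of 3 after DSS correlated best with their own number, so the numbers were not taken to pair mice. The cause of these changes was not tested beyond the fewer mice or genes that some of them leave.

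Differences between genotypes that were near 0 changed sign (log2(TPM + 1), labelled knockout minus control). With the TPM of each mouse scaled to equal totals, they were 0.080 for *Mt1* and 0.026 for *Ftl1* after DSS, and -0.21 for *Mt2*, -0.19 for *Tfrc*, -0.23 for *Fth1*, -0.18 for *Ftl1* and -0.17 for *Heph* in water. With array quality weights they were 0.019 for *Mt1*, -0.038 for *Mt2*, 0.095 for *Ftl1*, -0.017 for *Heph* and -0.0013 for *Tnfrsf1b* after DSS, and -0.057 for *Mt2* and -0.0088 for *Fth1* in water. With the replicate block they were 0.029 for *Mt1* and -0.0077 for *Slc11a2* after DSS and -0.055 for *Tfrc* in water. Leaving out 1 mouse gave, after DSS, -0.38 to 0.14 for *Mt1*, -0.11 to 0.54 for *Mt2*, -0.12 to 0.24 for *Slc39a4*, -0.27 to 0.18 for *Ftl1*, -0.0050 to 0.24 for *Slc40a1*, -0.015 to 0.37 for *Slc11a2*, -0.040 to 0.15 for *Heph* and -0.058 to 0.36 for *Tnfrsf1b*. In water it gave -0.12 to 0.18 for *Mt1*, -0.15 to 0.21 for *Mt2*, -0.058 to 0.14 for *Tfrc*, -0.050 to 0.070 for *Fth1* and -0.0094 to 0.16 for *Heph*.

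The count of members apart from water in both genotypes was 3. It was 1 by rank within a mouse, 1 when scaled to equal totals without immunoglobulin and mitochondrial genes, 1 when scaled to the epithelial markers, and 3 to 5 when 1 mouse was left out (5 without DSS-treated control 3). In the labelled knockouts the difference of *Slc40a1* turned to 0.26 as deposited, 0.25 on those totals and 0.15 on the epithelial markers, and that of *Slc11a2* to 0.22, 0.23 and 0.12 (log2). By rank, *Mt2*, *Slc40a1* and *Slc11a2* stood 20.95, 109.35 and 89.05 places higher after DSS in the labelled knockouts. In the controls the same genes differed by -66.3, -317 and -995 places, which is lower after DSS. Leaving out 1 mouse gave -0.24 to 0.063 for *Slc11a2* in the labelled knockouts (above 0 without water-treated mouse 4 or DSS-treated mouse 3 of them). The other 142 differences of DSS from water with 1 mouse left out kept their direction.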
